A study of Homo sapiens with 8 samples.

Results

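The IFI genes are 8 genes whose symbols stand for "interferon inducible": IFI6, IFI27, IFI27L1, IFI27L2, IFI35, IFI44, IFI44L and IFI30. They were chosen by name, with earlier results of these data known, and are not all genes so named. IFI16 is counted among the other interferon-stimulated genes below. All 8 had a row in both deposited tables of counts, among 36779 genes listed in all. All 8 were among the 17869 genes tested, which reached 1 CPM (a count relative to the library's scaled total) in at least 2 libraries. IFI27 reached that level only in the 2 PC3 circRNA libraries and IFI44L only in the 4 PC3 libraries, so each had to differ in the comparisons that set those libraries against the rest. The RNA came from DU145 and PC3, established human prostate cancer cell lines, in 8 libraries of 1 sample each. Each line was transfected with a plasmid for overexpression of circ0003553 or of circ0004592, which are circular RNAs (circRNAs), or with a negative control plasmid. The library titles name the arms RCAN3 (control, circ0003553) and STK3 (control, circ0004592), so each line had 2 control libraries and 1 library per circRNA. Apart from its plasmid no library received an agent that the labels name, and the labels do not say whether the controls were separate cultures, so p-values measure the spread between these samples, which may be technical.

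Interferons are secreted proteins made by cells that sense viral nucleic acid. They bind receptors that act through the kinases JAK1, TYK2 and JAK2. The activated complex ISGF3, which holds STAT2 and IRF9, binds a promoter element called ISRE, and interferon gamma acts through another element, GAS. IFI6 and IFI27 encode small hydrophobic membrane proteins of one family, to which IFI27L1 and IFI27L2 also belong. IFI44 and IFI44L are related neighbouring genes with antiviral roles, IFI35 encodes a leucine zipper protein that binds NMI, and IFI30 encodes GILT, a lysosomal thiol reductase that helps to unfold proteins for class II antigen presentation.

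All 8 genes had an entry in the RefSeq promoter table (GRCh38.p14), from 250 bases before to 50 bases after the annotated start. IFI27 and IFI44 had 2 entries each, of which only the first was searched, so their matches are those of 1 start. The promoters were searched for the ISRE core GAAANNGAAA, on either strand, and for TTCNNNGAA, the GAS pattern, which reads alike on both strands. Shares of all promoters cover every distinct entry. The ISRE core stood in 3.57% of all 35116 promoters and GAS in 7.66%. Among the IFI genes, IFI6 had 3 matches to the ISRE core, IFI27 and IFI44L had 2 each and IFI44 had 1, while IFI27L1, IFI27L2, IFI35 and IFI30 had none of these letters in the window. The stretches that hold the matches are shown for the 4 genes with an ISRE core, matches in capitals, with 20 bases on either side. They are read 5′ to 3′ on the strand of the gene and come from chr1:27672256-27672368 (minus strand) for IFI6, chr14:94110608-94110670 for IFI27, chr1:78649751-78649800 for IFI44 and chr1:78620264-78620404 for IFI44L.
IFI6: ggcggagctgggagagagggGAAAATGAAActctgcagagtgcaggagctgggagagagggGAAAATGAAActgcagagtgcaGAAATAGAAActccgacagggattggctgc
IFI27: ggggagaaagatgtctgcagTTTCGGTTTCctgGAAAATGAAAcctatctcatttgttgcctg
IFI44: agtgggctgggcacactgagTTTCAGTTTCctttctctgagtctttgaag
IFI44L: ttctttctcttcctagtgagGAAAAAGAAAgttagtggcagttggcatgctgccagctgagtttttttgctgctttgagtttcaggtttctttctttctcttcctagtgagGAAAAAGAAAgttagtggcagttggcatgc

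The first bases of the IFI6 matches lay 156, 115 and 93 bases before the start. The first 2 of them sit in a stretch of 29 bases that is repeated 41 bases further on. IFI44L had a longer repeat, of 85 bases at a spacing of 91, and both of its matches lie in the copies, 164 and 73 bases before the start. An exact repeat of 29 bases or more stood in 0.88% of all promoters. In IFI27 the match on the other strand began 108 bases before the start and the match on its own strand 95 bases before it, with a GAS match at 101 that overlaps both. The single match of IFI44 began 18 bases before its start, on the other strand. IFI35 had no ISRE core but a GAS match, 22 bases before its start, which is in capitals in the stretch chr17:43006742-43006790.
IFI35: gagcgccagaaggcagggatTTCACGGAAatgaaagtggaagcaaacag

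**Figure D1:**
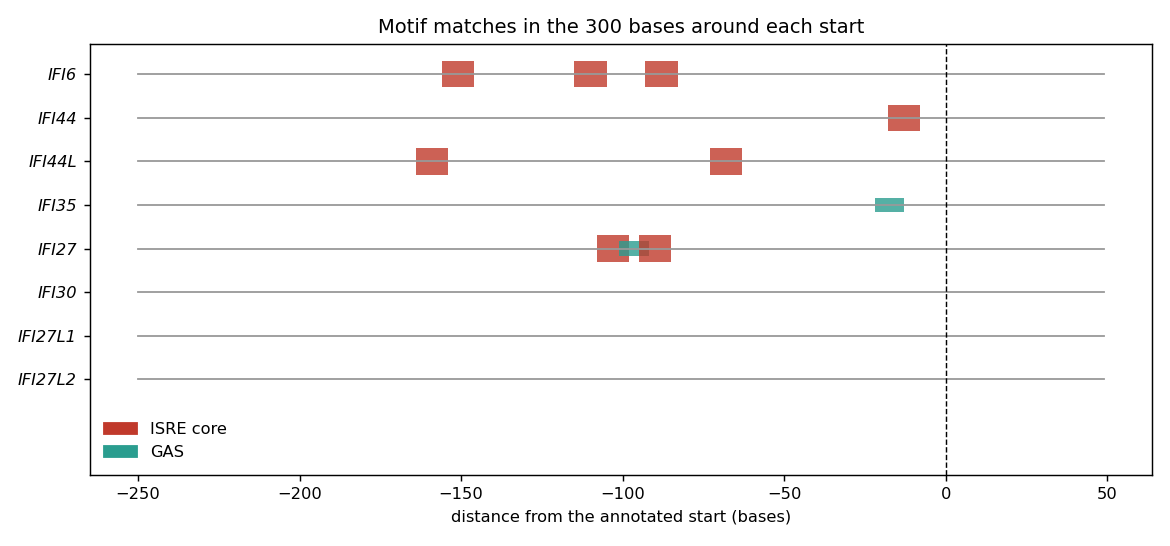
Matches to the ISRE core (tall red blocks) and to GAS (short green blocks) in each IFI promoter, by distance in bases from the annotated start (dashed line), with 1 horizontal line per gene. IFI6 has 3 ISRE matches, IFI27 and IFI44L have 2 each, IFI44 has 1, IFI35 has only a GAS match, and the lines of IFI30, IFI27L1 and IFI27L2 are empty.

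Total counts ran from 33444940 to 49926342 per library, and in each library 64.9% to 66.1% of the counts from 1 to 20 were even, so the read pair was taken as the unit of counting error. Markers of the lines followed the labels: CTNNA1, which PC3 is known to lack, stood at 391 to 427 CPM in DU145 and at 3.88 to 4.65 CPM in PC3. Of 6 leukocyte markers in the files, 5 stayed under 1 CPM in every library, and PTPRC, the common leukocyte antigen, was at 0 in 5 libraries and at most at 0.0608 CPM. The other, CD68, is a lysosomal protein that many cell types make, and it went from 294 and 270 CPM in the PC3 controls to 602 and 625 CPM with the circRNAs. Mitochondrial genes took 7.97% and 7.75% of the counts in the PC3 controls, against 4.94% with circ0003553 and 6.08% with circ0004592; their part in the results was not tested. In bulk RNA, more cells that make a transcript and more transcript per cell cannot be told apart. Counts of RCAN3, the gene that names its arm, went from 20.8 to 36.9 CPM in DU145 and from 33.0 to 44.6 CPM in PC3 with circ0003553. STK3 went from 26.1 to 33.8 CPM in DU145 and from 9.13 to 19.5 CPM in PC3 with circ0004592.

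In PC3, IFI6, IFI27, IFI35, IFI44, IFI44L and IFI30 rose with both circRNAs, and IFI6 rose most, 48.7-fold with circ0003553 and 53.9-fold with circ0004592. IFI27L2 passed the test with neither circRNA, and IFI27L1 only just with circ0003553. Together the 8 genes went from 81.9 and 82.1 CPM in the PC3 controls to 1424 CPM with circ0003553 and 1491 CPM with circ0004592. With circ0003553, 7 of the 8 genes were higher and 0 lower, where 15.6% of all tested genes were higher and 12.6% lower. With circ0004592, 6 were higher and 0 lower, where 13.2% of all tested genes were higher and 11.7% lower. Both counts include IFI27, whose call was favoured by the low-count filter, which it passed only through the PC3 circRNA libraries. The median log2 change of the 8 genes was 3.89 and 3.91, and that of all tested genes was -0.01 in both comparisons. Both comparisons share the 2 PC3 controls. Each circRNA library was the only one of its kind in the line, so its own spread was taken to be that of the controls. The test was edgeR's quasi-likelihood test with Benjamini-Hochberg adjustment over all tested genes, for every adjusted p given here.

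**Figure D2:**
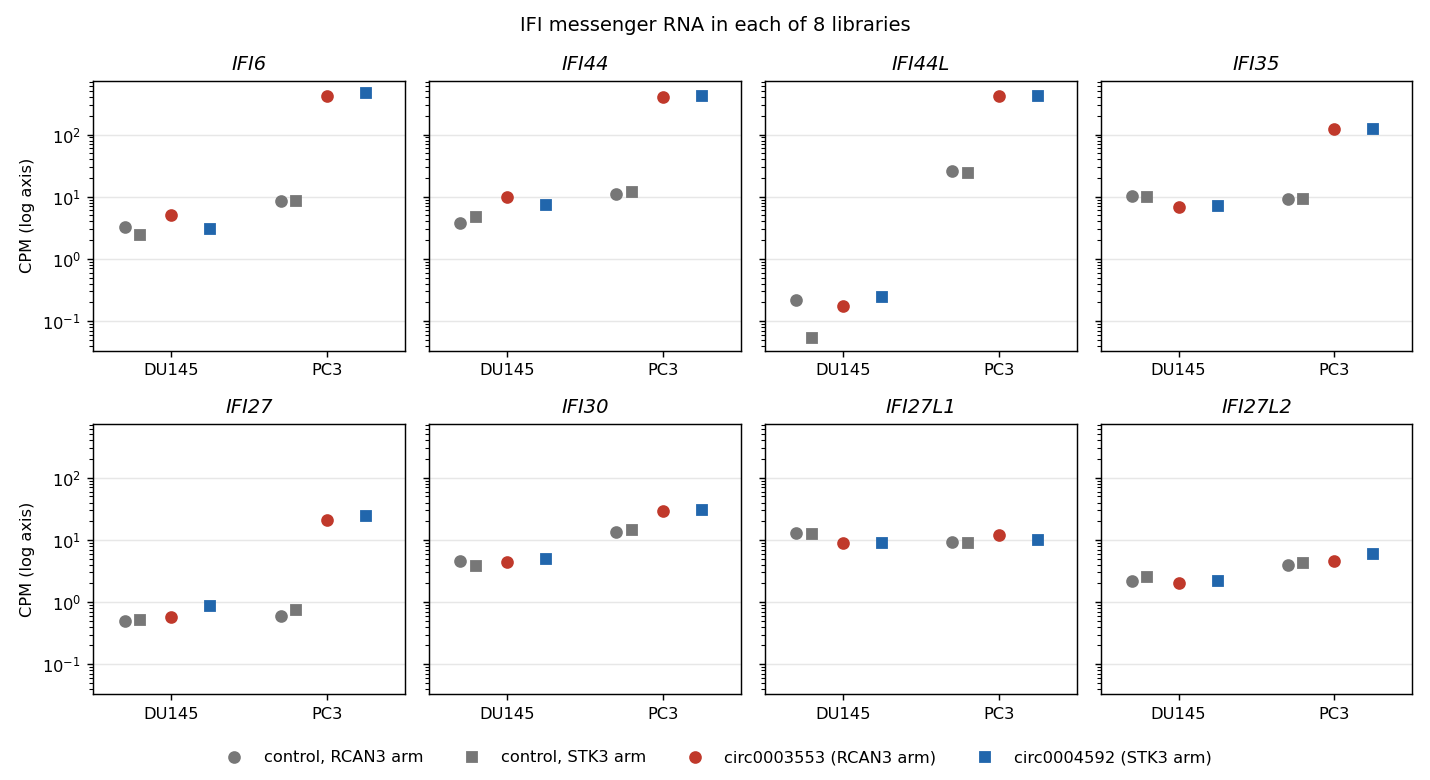
CPM on a log axis of the 8 IFI genes in each of the 8 libraries, by cell line; grey points are the control plasmid, red points circ0003553 and blue points circ0004592, and circles and squares mark the RCAN3 and STK3 arms. In PC3, the red and blue points of IFI6, IFI44, IFI44L, IFI35 and IFI27 stand more than 10-fold above the grey points, and those of IFI27L1 and IFI27L2 stand near them.

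IFI6, an inhibitor of cell death at mitochondrial and other inner membranes, was at 8.60 and 8.54 CPM in the PC3 controls, at 418 CPM with circ0003553 and at 462 CPM with circ0004592. Both circRNA libraries were far above both controls, whose values differed by less than counting error. The log2 change was 5.61 ± 0.08 (SE) with circ0003553 (adjusted p = 5.32e-21) and 5.75 ± 0.08 with circ0004592 (adjusted p = 4.06e-21). Among all tested genes these changes ranked 42 and 34 from the top. Its relative IFI27, a protein linked to mitochondria and the nuclear envelope, stood at 0.586 and 0.754 CPM (21 and 27 counts) in the controls, at 21.2 CPM with circ0003553 and at 24.6 CPM with circ0004592. Both circRNA libraries were far above both controls. With limma on RPKM at a pseudocount of 1, which pulls low levels together, the log2 changes of IFI27 were 2.36 and 2.55. Its log2 change was 4.98 ± 0.19 with circ0003553 (adjusted p = 1.01e-13) and 5.19 ± 0.19 with circ0004592 (adjusted p = 3.99e-14). IFI27 passed the low-count filter only through the PC3 circRNA libraries, so these tests had to favour a rise and add no support to the values. Without the filter its log2 changes were 4.92 and 5.14.

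IFI44, a cytoplasmic protein with antiviral and antiproliferative activity, was at 11.1 and 11.9 CPM in the PC3 controls, at 405 CPM with circ0003553 and at 412 CPM with circ0004592. The groups did not overlap, and the circRNA libraries differed from each other by less than counting error. The log2 change was 5.13 ± 0.08 with circ0003553 (adjusted p = 1.03e-20) and 5.16 ± 0.08 with circ0004592 (adjusted p = 1.07e-20). IFI44L, its neighbour, was at 25.9 and 24.1 CPM in the controls and stood at 412 and 423 CPM with circ0003553 and circ0004592. Its log2 changes were 4.04 ± 0.07 (adjusted p = 2.00e-19) and 4.08 ± 0.07 (adjusted p = 1.73e-19). IFI35, the partner of NMI, was at 9.30 and 9.10 CPM in the controls, at 122 CPM with circ0003553 and at 124 CPM with circ0004592. It was higher in both circRNA libraries, with log2 changes of 3.73 ± 0.08 (adjusted p = 4.21e-18) and 3.75 ± 0.08 (adjusted p = 4.15e-18).

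IFI30 was at 13.2 and 14.5 CPM in the PC3 controls, at 29.0 CPM with circ0003553 and at 30.0 CPM with circ0004592. Its rise was much smaller than those of the genes named so far, though both circRNA libraries were above both controls. The log2 change was 1.07 ± 0.12 with circ0003553 (adjusted p = 8.11e-07) and 1.12 ± 0.12 with circ0004592 (adjusted p = 4.51e-07). On RPKM with limma (log2 after adding 0.1) the changes were 0.9998 and 1.07 but the adjusted p was 0.108 and 0.112. A readthrough transcript that joins PIK3R2 and IFI30, listed as AC007192.4 on the same strand, shares 997 of the 2481 bases of the IFI30 gene model. Of all 31-base stretches in the GENCODE v29 transcripts of IFI30, 44.6% also occur in transcripts of other genes, against 6.7% or less for the other IFI genes. How reads of these shared bases were counted is not given in the sources used here, so the level of IFI30 is uncertain. AC007192.4 itself was at 115 CPM in both PC3 controls, at 117 CPM with circ0003553 and at 109 CPM with circ0004592. PIK3R2 was at 102 and 101 CPM in these controls and at 88.2 and 79.0 CPM with the circRNAs. In every library AC007192.4 stood close to PIK3R2 and IFI30 added together, as if shared reads were counted for both genes. Its level is therefore not a measure apart from those of PIK3R2 and IFI30.

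IFI27L1 was at 9.16 and 8.96 CPM in the PC3 controls, at 11.8 CPM with circ0003553 and at 10.1 CPM with circ0004592. Its log2 change of 0.38 ± 0.13 with circ0003553 passed (adjusted p = 0.0335), and that of 0.16 ± 0.13 with circ0004592 did not (adjusted p = 0.422). The call with circ0003553 was lost with DESeq2 (adjusted p = 0.365), without the low-count filter (adjusted p = 0.153) and without either PC3 control, with adjusted p = 0.0605 (RCAN3 arm) and 0.106 (STK3 arm). It was also lost without either DU145 control, with an adjusted p of 0.102 in both cases. IFI27L2 was at 3.94 and 4.30 CPM in the controls, at 4.54 CPM with circ0003553 and at 5.84 CPM with circ0004592. All circRNA values of IFI27L2 were above the controls, but the log2 changes of 0.14 ± 0.22 (adjusted p = 0.681) and 0.50 ± 0.21 (adjusted p = 0.0883) did not pass.

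**Figure D3:**
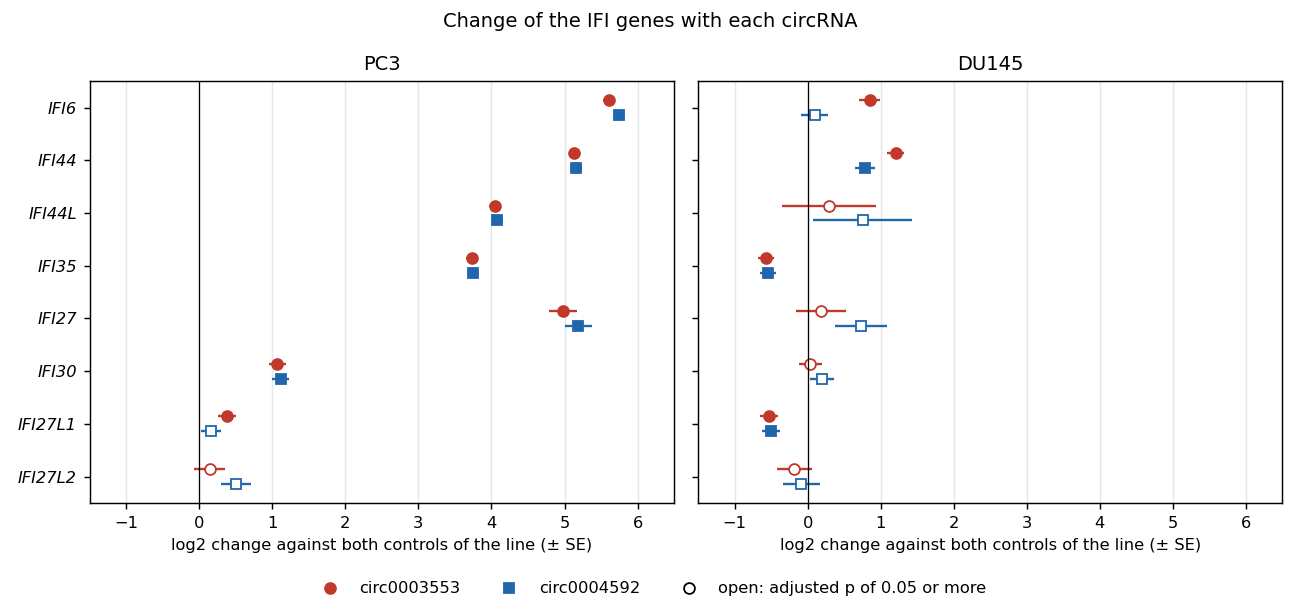
Log2 change of each IFI gene with circ0003553 (red circles) and circ0004592 (blue squares) against both control libraries of the line, in PC3 (left) and DU145 (right), with bars of ± SE and open symbols where the adjusted p was 0.05 or more. In PC3 the changes run from 0.14 to 5.75, and in DU145 from -0.57 to 1.20.

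Set against the control of its own arm alone, with 95% Clopper-Pearson intervals on read pairs that cover counting error only, IFI6 was 48.6-fold (41.4 to 57.4) and 54.1-fold (46.1 to 63.9) higher in PC3. IFI27 was 36.2-fold (20.4 to 80.0) higher with circ0003553 and 32.6-fold (18.5 to 58.0) higher with circ0004592. IFI27L1 was at 1.29-fold (1.04 to 1.59) and 1.13-fold (0.904 to 1.41). The circRNA libraries of PC3 can also be set against each other, with no test since each is alone. The ratio of circ0004592 to circ0003553 was 1.11 for IFI6 (1.07 to 1.14), whose interval excludes 1. For the other 7 genes the interval included 1, for IFI27 only just (1.16, 0.9998 to 1.34). The ratio was 1.02 for IFI44 (0.984 to 1.05), 1.01 for IFI35 (0.950 to 1.08) and 1.29 for IFI27L2 (0.939 to 1.77).

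In DU145 the changes were small and went both ways: IFI44 was higher with both circRNAs, IFI6 was higher with circ0003553, and IFI35 and IFI27L1 were lower with both. With circ0003553, 2 of the 8 genes were higher and 2 lower, where 4.24% of all tested genes were higher and 6.30% lower. With circ0004592, 1 was higher and 2 lower, where 5.24% of all tested genes were higher and 4.65% lower. The sum of the 8 genes was 37.9 and 36.6 CPM in the DU145 controls, 37.8 CPM with circ0003553 and 34.6 CPM with circ0004592. None of these calls remained when either DU145 control was left out, where edgeR called 0 of all tested genes with either circRNA, or with limma on RPKM at a pseudocount of 0.1 or 1. Without the control of the RCAN3 arm, 2718 genes with circ0003553 and 2988 with circ0004592 had an unadjusted p under 0.05. Without that of the STK3 arm there were 2976 and 2593. The log2 changes with circ0003553 were then 1.03 and 1.38 for IFI44, 1.12 and 0.65 for IFI6, -0.55 and -0.58 for IFI35 and -0.49 and -0.55 for IFI27L1, without the RCAN3 and the STK3 control in turn. With both circRNAs as 1 group and line and arm as a block, a fit chosen after seeing the data, IFI44 was higher and IFI35 lower, and IFI6 (adjusted p = 0.0933 by edgeR) and IFI27L1 (adjusted p = 0.0636) did not pass. DESeq2, with both controls, called 3 of the 8 genes with circ0003553 and 2 with circ0004592.

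IFI44 was at 3.75 and 4.79 CPM in the DU145 controls, at 9.75 CPM with circ0003553 and at 7.30 CPM with circ0004592. Both circRNA libraries were above both controls, with log2 changes of 1.20 ± 0.12 (adjusted p = 4.51e-06) and 0.79 ± 0.14 (adjusted p = 0.00139). Without either control the adjusted p was 0.264 to 0.275 with circ0003553 and 0.239 to 0.316 with circ0004592. IFI6 was at 3.29 and 2.38 CPM in the controls, at 5.17 CPM with circ0003553 and at 3.07 CPM with circ0004592. The circ0003553 library was above both controls (log2 change 0.85 ± 0.14, adjusted p = 0.000963), and the circ0004592 library lay between them (log2 change 0.10 ± 0.18, adjusted p = 0.807). IFI35 went the other way than in PC3, from 10.2 and 10.01 CPM in the controls to 6.82 CPM with circ0003553 and 6.97 CPM with circ0004592. The groups did not overlap, and IFI35 fell by 0.57 ± 0.10 on the log2 scale (adjusted p = 0.00171) and by 0.54 ± 0.11 (adjusted p = 0.00554). IFI27L1 fell alike, from 13.1 and 12.5 CPM to 8.93 and 9.06 CPM, with log2 changes of -0.52 ± 0.12 (adjusted p = 0.00962) and -0.50 ± 0.13 (adjusted p = 0.0195).

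The other 4 genes passed with neither circRNA in DU145. IFI27 was at 0.504 and 0.523 CPM in the controls, at 0.585 CPM with circ0003553 and at 0.852 CPM with circ0004592, from 20 to 30 counts per library. IFI44L was barely detected: it had 10 and 2 counts in the controls, 9 with circ0003553 and 8 with circ0004592, or 0.0523 to 0.243 CPM. Against the control of the STK3 arm, the ratio with circ0004592 was 4.65, with a counting interval of 0.460 to 229, so no change of IFI44L could be read at this depth. IFI30 was at 4.65 and 3.79 CPM in the controls and at 4.35 and 4.87 CPM with circ0003553 and circ0004592. IFI27L2 stayed between 2.05 and 2.51 CPM in the 4 DU145 libraries.

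Without any circRNA the lines already differed. In the PC3 controls 5 of the 8 genes were higher than in the DU145 controls and 1 was lower, where 41.6% of all tested genes were higher and 40.9% lower, so a difference between the lines was no more common among the IFI genes than among all genes. IFI44L stood apart, with 25.9 and 24.1 CPM in PC3 against 0.219 and 0.0523 CPM in DU145 (log2 difference 7.42 ± 0.17, adjusted p = 3.69e-18). The DU145 values rest on 10 and 2 counts, so the size of this difference is less certain than its SE says. IFI44L also passed the low-count filter only through the PC3 libraries, so this test had to favour PC3. The difference between the lines was larger than that of IFI44L between the PC3 controls and the PC3 circRNA libraries. IFI30 (1.70 ± 0.12), IFI6 (1.58 ± 0.12), IFI44 (1.44 ± 0.10) and IFI27L2 (0.83 ± 0.19) were also higher in PC3 on the log2 scale, with adjusted p from 6.82e-11 to 0.000437. IFI27L1 was lower (-0.50 ± 0.10, adjusted p = 0.000176). The differences of IFI27 (0.38 ± 0.30, adjusted p = 0.240) and IFI35 (-0.14 ± 0.09, adjusted p = 0.141) did not pass. Thus IFI27 and IFI35, both over 10-fold higher with the circRNAs in PC3, had control levels for which no difference between the lines was shown.

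The test of the change in PC3 minus the change in DU145 was passed by 7 of the 8 genes for each circRNA, all with the larger change in PC3. Of all tested genes, 13.4% had a higher and 9.24% a lower change in PC3 with circ0003553, and 10.6% and 8.91% with circ0004592. The difference for IFI35, which rose in PC3 and fell in DU145, was 4.30 ± 0.13 (log2) with circ0003553 (adjusted p = 6.74e-15) and 4.29 ± 0.14 with circ0004592 (adjusted p = 1.48e-14). For IFI6 it was 4.76 ± 0.18 and 5.65 ± 0.20, and for IFI27 4.79 ± 0.42 and 4.46 ± 0.42. The test of IFI27 was favoured by the low-count filter, which it passed only through the PC3 circRNA libraries. For IFI27L2 the difference was 0.32 ± 0.32 (adjusted p = 0.532) and 0.59 ± 0.33 (adjusted p = 0.237). Without either DU145 control, 4 genes passed for each circRNA; IFI27L1, IFI44L and IFI30 no longer did, with adjusted p from 0.0678 to 0.369.

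**Figure D4:**
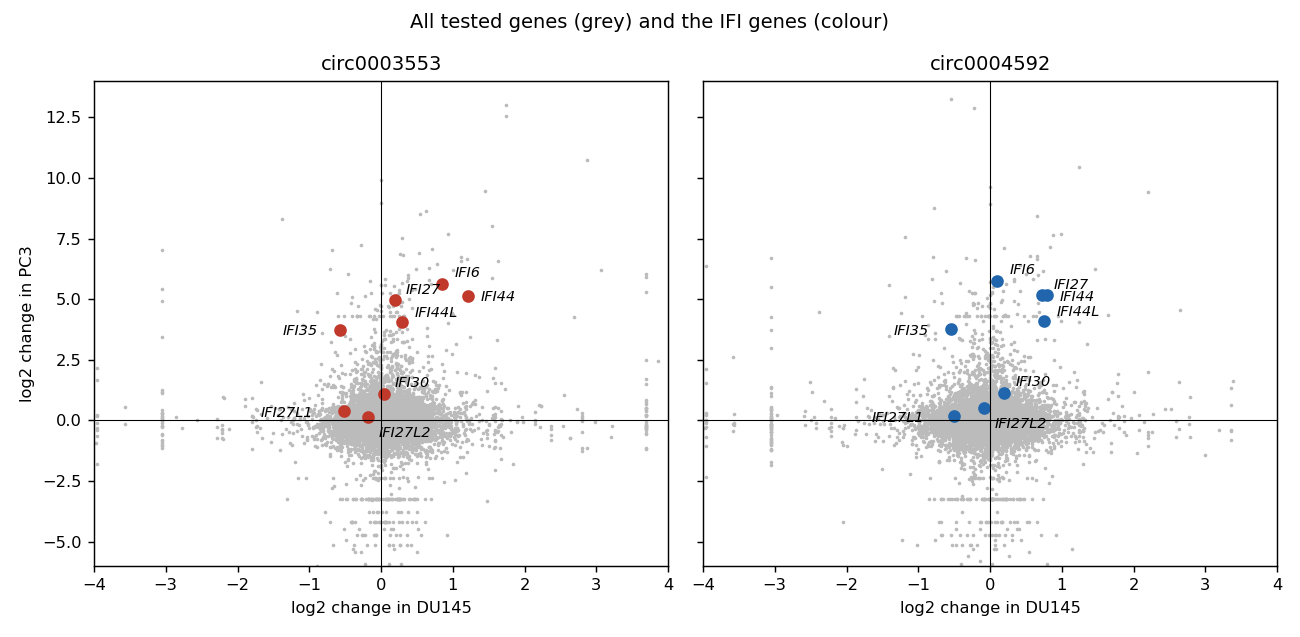
Log2 change of all 17869 tested genes (grey) and of the 8 IFI genes (colour) in DU145 (x axis) and PC3 (y axis), with circ0003553 on the left and circ0004592 on the right; the axes leave out 44 and 78 genes with extreme values. IFI6, IFI27, IFI44, IFI44L and IFI35 lie at 3.73 or more on the y axis and between -0.57 and 1.20 on the x axis.

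Levels of different genes can be set side by side only per length, for which the deposited RPKM were used. They divide by the whole gene model, which is 10240 bases long for IFI44L and 4147 for IFI27 but 865 for IFI6, so a level is understated where a long model is only partly transcribed. In the PC3 controls IFI6 was highest at 10.003 ± 0.033 RPKM (SD, n = 2), followed by IFI44 (5.71 ± 0.27), IFI30 (5.63 ± 0.37), IFI35 (4.71 ± 0.06), IFI27L1 (3.84 ± 0.05), IFI27L2 (2.50 ± 0.16), IFI44L (2.47 ± 0.12) and IFI27 (0.163 ± 0.029). IFI44 and IFI30, and IFI27L2 and IFI44L, differed by less than their spread. With circ0003553 the order was IFI6 (469 RPKM), IFI44 (192), IFI35 (60.2), IFI44L (39.0), IFI30 (11.3), IFI27 (4.97), IFI27L1 (4.80) and IFI27L2 (2.65). With circ0004592 it was the same, from 525 RPKM for IFI6 to 3.45 for IFI27L2. In the DU145 controls IFI27L1 (5.42 ± 0.20 RPKM) and IFI35 (5.16 ± 0.10) were highest, and IFI27 (0.125 ± 0.003) and IFI44L (0.0134 ± 0.0117) lowest.

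**Figure D5:**
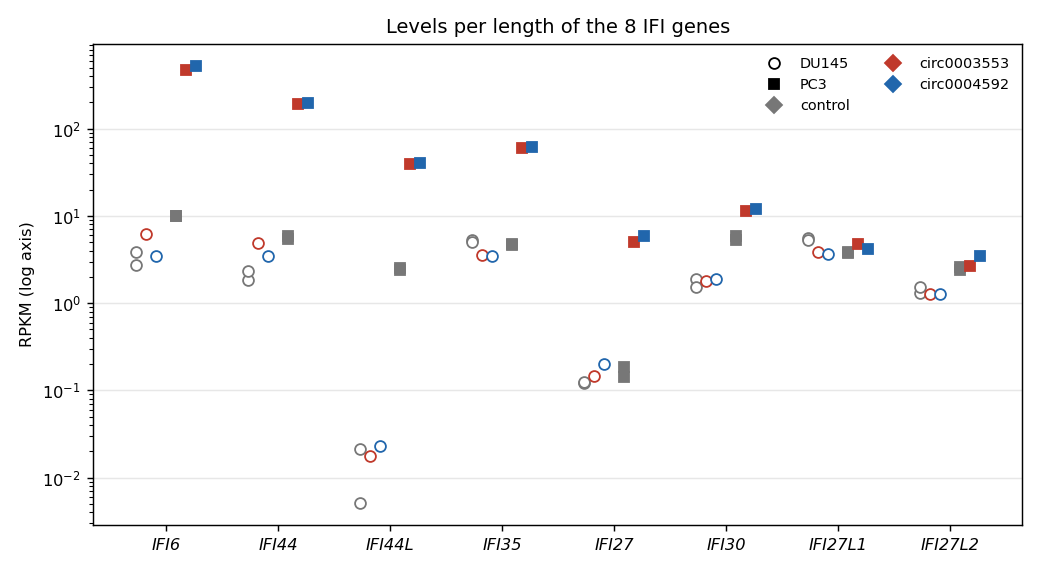
RPKM on a log axis of the 8 IFI genes in the 8 libraries, with open circles for DU145 and filled squares for PC3, in grey for the control plasmid, red for circ0003553 and blue for circ0004592. In PC3 the circRNA libraries of IFI6 reach 469 and 525 RPKM, and in DU145 IFI44L lies below 0.03 RPKM in all 4 libraries.

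Of the interferon ligands, 8 of the 21 listed had rows in the files and none reached the level for testing. IFNB1, the interferon beta gene, had 0 counts in all 4 controls and in both DU145 circRNA libraries, and 44 and 30 counts (1.35 and 0.912 CPM) in PC3 with circ0003553 and circ0004592. Against a floor of 3 read pairs in the control library of the same arm, IFNB1 was at least 8.06-fold and 5.44-fold higher. The PC3 libraries with high IFI levels were thus the ones in which IFNB1 was detected. No other ligand had more than 12 counts in any library.

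Of 12 receptors, kinases and ISGF3 subunits, 9 were higher and 1 lower in PC3 with circ0003553, and 8 higher and 0 lower with circ0004592. Of all tested genes, 15.6% were higher and 12.6% lower with circ0003553, and 13.2% and 11.7% with circ0004592. STAT2 went from 33.9 and 36.0 CPM in the PC3 controls to 221 and 222 CPM (log2 change 2.66 and 2.67), and IRF9 changed by 2.60 and 2.63. JAK2, the kinase paired with the interferon gamma receptor, changed by 1.41 and 1.57. IFNAR1, a receptor chain for type I interferons, was the lower one, at -0.32 with circ0003553. In DU145 only IRF9 was higher with either circRNA (log2 change 0.41 and 0.53), and IFNGR1 was lower with circ0004592 (-0.35). There, 4.24% of all tested genes were higher and 6.30% lower with circ0003553, and 5.24% and 4.65% with circ0004592. The DU145 counts are near these shares and are not a result about the list. The median log2 change of the 12 genes was 0.47 and 0.38 in PC3 and -0.02 and -0.15 in DU145.

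Of 39 other interferon-stimulated genes, chosen with earlier results of these data known, all 39 were higher in PC3 with each circRNA. Of all tested genes, 15.6% were higher with circ0003553 and 13.2% with circ0004592. The median log2 change of the 39 genes was 5.37 and 5.32, above that of the 8 IFI genes. XAF1, which promotes apoptosis, had 0 counts in both PC3 controls and reached 26.7 and 32.2 CPM, at least 159-fold and 192-fold over the floor. RSAD2, which encodes the antiviral enzyme viperin, changed by 9.45 and 9.40 on the log2 scale, OASL by 8.51 and 8.43 and TRIM22 by 8.04 and 8.02. In DU145 with circ0003553, where 4.24% of all tested genes were higher and 6.30% lower, 17 of the 39 were higher and 0 lower. With circ0004592, where 5.24% of all tested genes were higher and 4.65% lower, 10 of the 39 were higher and 2 lower. The median changes of the 39 genes were 0.31 and 0.15. Among the genes that passed in DU145, the largest rises were those of OAS2, XAF1, MX2 and DDX60 with circ0003553 (log2 change 3.07, 1.74, 1.20 and 0.99). Among those that passed with circ0004592 they were those of ISG20, ISG15, OASL and DDX60 (0.76, 0.68, 0.65 and 0.60). OAS2 and XAF1 stayed under 1 CPM in all DU145 libraries. GBP1 (-0.41) and PARP14 (-0.22) were lower. The DU145 calls share the dependence on both controls described above. Of 5 tested feedback inhibitors, 3 were higher in PC3 with circ0003553 and 2 with circ0004592, and 0 were lower, beside the shares of all tested genes given above. USP18, which blocks the type I receptor, was higher by 4.61 and 4.60 and PTPN6 by 0.60 and 0.66. SOCS3 was higher by 0.24 with circ0003553 only. In DU145 none of the 5 passed, which is near the shares given above and not a result about the list.

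Genes that overlap an IFI gene or lie within 20 kb of it did not as a rule follow it. RP11-288L9.4, on the plus strand, overlaps the IFI6 locus (minus strand, chr1:27666061-27672218 in hg38) with no exon bases in common, and went from 0.0559 and 0.0558 CPM in the PC3 controls to 3.87 and 5.14 CPM (log2 change 6.03 and 6.44). With the strand setting of the counts not given, reads of overlapping genes on opposite strands may not be separable. IFI44 (chr1:78649796-78664078) begins 3651 bases after the end of IFI44L (chr1:78619922-78646145), and IFI27 (chr14:94104836-94116698) begins 990 bases after the end of IFI27L1 (chr14:94081282-94103846). IFI44 and IFI44L rose together in PC3, while IFI27 rose between IFI27L1 and IFI27L2 (chr14:94127779-94130253), which had log2 changes of at most 0.50. VAT1, which ends 149 bases from IFI35 (chr17:43006725-43014456) on the other strand, fell by 0.84 with both circRNAs in PC3. PIK3R2, 2622 bases before IFI30 (chr19:18173162-18178117), was lower too, with log2 changes of -0.20 and -0.36. DDX24, 37 bases from IFI27L1 on the other strand, was slightly higher, by 0.25 and 0.23.

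Likeness of pattern was measured over the 8 libraries as the root mean square difference of log2 CPM after subtracting each gene's mean. With the IFI genes left out, the 3 closest tested genes to IFI6 included IFIT2 (0.37) and MX2 (0.39), and those to IFI44 included SAMD9 (0.35) and RP11-288L9.4 (0.36). IFI27 was closest to RP4-620F22.2 (0.23), HELZ2 (0.24) and TRANK1 (0.27). RP4-620F22.2 was at 0 CPM except in the PC3 circRNA libraries, at 1.63 and 1.58 CPM. A small count was added before taking logs, so likeness at such low levels is set partly by it. The 3 closest to IFI35 included TRIM21 (0.30) and TRIM5 (0.32). IFI30 was closest to STAP2 (0.16), IRF2 (0.16) and CD47 (0.18). IFI44L had no such close gene, and the 3 nearest to it included TCF4 (1.05) and GBP4 (1.10). IFI27L1 was closest to MIRLET7BHG (0.09), ADAL (0.11) and CDADC1 (0.11), and IFI27L2 to NR1H3 (0.09), ZMYM4 (0.09) and SPICE1 (0.09). Among the IFI genes themselves IFI6 and IFI44 were most alike (0.48) and IFI27L1 and IFI44L least (4.75).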

How the data were processed

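Total RNA of 8 libraries was depleted of ribosomal RNA, made into stranded paired-end libraries with molecular identifiers and sequenced on a NovaSeq, per the labels' protocols. The deposited count tables (raw read counts per gene, 1 table per arm) and RPKM tables rest on Trimmomatic 0.36, featureCounts of Subread 1.5.1, edgeR 3.12.1 and hg38, per the submitters' processing notes. The aligner, annotation release, strand setting and use of the identifiers are not given in the sources used here. The deposited RPKM equal the count divided by gene length and total count, as recomputed. The tables list 36779 genes, 31268 of them in both; a gene listed for 1 arm was given 0 in the other.

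Counts were scaled by TMM, and genes at 1 CPM or more in at least 2 libraries were tested with edgeR 4.0.16 in R 4.3.3 (quasi-likelihood, 6 groups of line and treatment, 2 residual degrees of freedom, threshold 0.05). SEs were worked back from the F statistic (size of the log2 change over the root of F). Floors are 3 read pairs (6 counts, 0.117 to 0.184 CPM) per library, and they and the intervals cover counting error only. Alternatives were DESeq2 1.42.0 as size factors and as test, no filter, a filter of 5 CPM, limma 3.58.1 on RPKM, each control left out, both circRNAs as 1 group, each line alone and, added after seeing the data, arm as a block. The code was run on simulated counts with known changes. Labels give no replicate numbers. The IFI genes and the gene lists were chosen with earlier results of these data known. Named were all IFI genes, up to 4 called genes per list by absolute change, neighbours within 20 kb and the 3 closest patterns; some genes that this rule names are not reported here. A name used for loci on several chromosomes was not taken as a neighbour.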

Additional observations from a re-analysis of the deposited data

Results flagged for a closer look

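The change with a circRNA differed between the lines, by edgeR's test of the PC3 change minus the DU145 change, for 7 of the 8 IFI genes with each circRNA. Of all tested genes, 13.4% had a higher and 9.24% a lower change in PC3 with circ0003553, and 10.6% and 8.91% with circ0004592. As described above, the calls of IFI27L1, IFI44L and IFI30 depended on both DU145 controls. With circ0003553 the log2 differences were 4.76 for IFI6, 4.79 for IFI27, 0.90 for IFI27L1, 4.30 for IFI35, 3.93 for IFI44, 3.75 for IFI44L and 1.03 for IFI30, with adjusted p from 6.74e-15 to 0.000939. With circ0004592 they were 5.65 for IFI6, 4.46 for IFI27, 0.66 for IFI27L1, 4.29 for IFI35, 4.37 for IFI44, 3.33 for IFI44L and 0.92 for IFI30, with adjusted p from 1.48e-14 to 0.0155. Every difference was towards the larger change in PC3. The differences of IFI44L rest on 2 to 10 counts per DU145 library, and IFI27 passed the low-count filter only through the PC3 circRNA libraries.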

How the results depend on the processing

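In PC3, IFI6, IFI27, IFI35, IFI44 and IFI44L kept their direction and stayed past the threshold with both circRNAs under every alternative run; IFI30 was lost with limma on RPKM at a pseudocount of 0.1, and IFI27L1 under most. In DU145, the number of IFI genes called with circ0003553 (4) and circ0004592 (3) was 0 and 0 with limma on RPKM at a pseudocount of 0.1, 0 and 0 at a pseudocount of 1, and 1 and 1 at 0.1 with no filter, and the cause was not tested. Leaving out 1 control at a time gave 0 to 4 with circ0003553 and 0 to 3 with circ0004592. The differences between the lines (7 each) were passed by 3 genes for circ0003553 with limma on RPKM at 0.1, and by 4 to 7 for each circRNA with 1 control left out. The prior degrees of freedom that edgeR estimated were 16.5 with all libraries, 2.54 and 2.53 without a DU145 control, and infinite without either PC3 control, where 2691 and 2699 of all genes were called in DU145 with circ0003553 and 2530 each time with circ0004592. Signs turned only without the DU145 control of the STK3 arm, in DU145, for 4 log2 changes that passed with no set of libraries run. Without 1 DU145 control these were -0.32 to 1.68 for IFI44L and -0.10 to 0.20 for IFI30 with circ0003553, and -0.10 to 0.37 for IFI6 and -0.20 to 0.028 for IFI27L2 with circ0004592. IFI6 in DU145 with circ0003553 was also lost with both circRNAs as 1 group (adjusted p = 0.223).

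Over the alternatives, the number of all genes called ran from 679 to 5157 in PC3 with circ0003553 (5041 as reported) and from 585 to 4583 with circ0004592 (4440), from 0 to 2717 (1883) and 0 to 2604 (1767) in DU145, and from 11581 to 16997 (14748) between the control groups. For the differences between the lines it ran from 253 to 4275 (4041) with circ0003553 and from 305 to 3820 (3493) with circ0004592. The low ends came from limma on RPKM at a pseudocount of 0.1, and in DU145 also at a pseudocount of 1 and without either DU145 control, except between the control groups, where it came from the filter of 5 CPM. Depth limited IFI44L in DU145 and IFI27 in DU145 and in the PC3 controls. The labels give no replicate numbers, but each circRNA library has a control of its own arm, so 2 fits with arm as a block were added after seeing the data. With arm as a replicate block in the 6 groups (1 residual degree of freedom), 6 and 6 IFI genes were called in PC3 with circ0003553 and circ0004592 and 4 and 3 in DU145. With both circRNAs as 1 group and line and arm as the replicate block (2 residual degrees of freedom), 6 were called in PC3 and 2 in DU145, and 3441 and 162 of all genes. IFI27L1 in PC3 with circ0003553 was lost in both (adjusted p = 0.0927 and 0.171). The differences between the lines were passed by 7 genes for each circRNA in both.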

Other observations

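IFI30 acts in lysosomes beside the class II antigen processing genes, of which 12 of 16 listed were tested. In PC3, 3 were higher with circ0003553 and 2 with circ0004592, and 0 were lower, beside 15.6% and 13.2% of all tested genes that were higher, so these shares are not a result about the list. CTSS, a cysteine protease that processes the invariant chain, went from 1.45 and 2.07 CPM in the controls to 7.55 and 7.91 CPM, and LGMN, an asparagine-specific protease, from 37.8 and 36.4 CPM to 117 and 115 CPM. The third gene called with circ0003553 was CD74, the invariant chain itself, which stayed at or below 0.245 CPM in PC3. CIITA, the main regulator of class II genes, passed with neither circRNA (log2 change 0.29 and 0.41, adjusted p = 0.299 and 0.131 by edgeR). In DU145, 2 of the 12 were higher with circ0003553 and 3 with circ0004592, where 4.24% and 5.24% of all tested genes were higher. CTSL (0.43 and 0.36) and CTSB (0.29 and 0.39 on the log2 scale) were among those called. These DU145 calls too were lost without either DU145 control, as described above, so the counts are not read as a result about the list.

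Of 5 reported partners of IFI proteins, 2 were higher and 1 lower in PC3 with circ0003553, and 2 higher and 0 lower with circ0004592. The shares of all tested genes were 15.6% higher and 12.6% lower with circ0003553, and 13.2% and 11.7% with circ0004592. With so short a list the counts are not read as a result about it. NMI, which binds IFI35, was higher in PC3 by 1.85 and 1.86 on the log2 scale, and FKBP5, which binds IFI44L, by 0.63 and 0.40. HSPA5, an endoplasmic reticulum chaperone, was lower with circ0003553 (-0.30). In DU145, FKBP5 was lower with circ0003553 (-0.21), where 6.30% of all tested genes were lower, and no other partner passed with either circRNA. This call, like all those in DU145, depended on both DU145 controls.

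Besides the IFI genes, 71 tested genes with a RefSeq promoter entry were called higher by at least 8-fold in PC3 with circ0003553, and the ISRE core stood in 35 of these promoters (49.3%), against 2.98% of all 10897 tested genes with an entry. For each gene the first entry was used. These genes were chosen by their change, so the share is a description.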
